A study of Mus musculus with 48 samples.

Results

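The 100 gene models counted most often in the lysates of 4T1 cells, out of 26899 models in the deposited count table, are described here. They were chosen by their counts summed over the 24 input libraries, after 13 models that dominated the precipitates had been left out, together with 5 named models (Ccdc107, Patl2, Snx22, Tlcd1 and Wdr38), symbols starting Rpl, Rps, Cnot or Cpeb and symbols in the table ending in os. The summed input counts of the 100 members ran from 12629 to 565684 reads, with a median of 20523, whereas the median over all models was 17 reads. Of the models left out, 11 had as many reads as the last member or more. The table gave no symbol for 58 members, and those are called here by their names in GENCODE M21 where it holds their identifiers.

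The study asked which RNAs associate with CNOT7. 4T1 is a mouse mammary tumour line (strain label BALB/cfC3H), and all cells were transduced with a lentiviral vector. The control vector held a fragment of non-coding DNA, and the vectors of the other cells held FLAG-tagged wild-type or mutant CNOT7. The CNOT7 insert was human cDNA driven by a murine Pol2 promoter, and the cells kept their own Cnot7. The D40A mutant is without deadenylase activity, whereas binding to CNOT1 is lost in M141R and binding to TOB1 in E247A/Y260A. RNA immunoprecipitation (RIP) with the M2 anti-FLAG antibody was performed on native, uncrosslinked lysates, and part of each lysate was kept as its input. Each of the 10 groups (5 constructs, RIP and input) held 5 libraries described as biological replicates and numbered 6 to 10, except that D40A had 4 and lacked number 7.

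CNOT7 is a deadenylase of the CCR4-NOT complex, which shortens the poly(A) tails of messages and so shapes their decay. Ribosomal RNA depletion leaves messages, long noncoding RNAs and small structured RNAs of a lysate to be sequenced together. Mammalian mitochondria transcribe both strands of their circular genome into long precursors, from which the tRNAs are cut out and thereby free the rRNAs and messages between them. Many mammalian loci have an annotated transcript on each strand, and a directional library is designed to tell the 2 strands apart.

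Input libraries held 337861 to 826768 counted reads and RIP libraries held 1305627 to 10719137, but only 35265 to 377943 of the latter lay outside the 13 dominating models. The members took 26.3% to 34.8% of the reads of an input and 0.458% to 1.39% of the reads of a RIP library. Outside the 13 models these shares were 29.7% to 41.9% and 20.0% to 43.4%. Levels are given as CPM, the counts scaled to each library's reads outside the 13 models. CNOT7 input replicate 10 stood apart: its median member level was 195 CPM and its median member had 66.0 reads, against 1001 to 2347 CPM and at least 436 reads in the other 23 inputs. D40A input replicate 6 and E247A/Y260A input replicate 6 also stood apart in their mitochondrial messages, and D40A RIP replicate 10 in its mitochondrial rRNA (below). For the epithelial markers, all 24 inputs together gave 413 reads for Krt7, 329 for Cdh1, 327 for Epcam, 56 for Krt18 and 47 for Krt8, and Krt14 was at 0. Over the whole lists, 10 epithelial and 4T1 markers summed to 1428 input reads, 7 fibroblast markers to 57, 6 leukocyte markers to 135, 3 endothelial markers to 151 and the 1 red cell marker found to 0.

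The mitochondrial genome supplied 11 members, and 4 of them were tRNAs. The 4 gene sequences are shown because models of 66 to 69 bases held ranks 2, 24, 48 and 56. They were read from the GENCODE M21 transcripts on GRCm38, all on the minus strand of chromosome M, and the capitals mark the anticodon.
mt-Ts1, tRNA-Ser, chrM:6870-6938: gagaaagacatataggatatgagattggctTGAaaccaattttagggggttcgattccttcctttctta
mt-Ty, tRNA-Tyr, chrM:5260-5326: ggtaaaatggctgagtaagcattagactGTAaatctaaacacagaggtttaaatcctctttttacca
mt-Tc, tRNA-Cys, chrM:5192-5257: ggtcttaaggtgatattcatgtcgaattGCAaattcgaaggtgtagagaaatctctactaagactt
mt-Te, tRNA-Glu, chrM:14071-14139: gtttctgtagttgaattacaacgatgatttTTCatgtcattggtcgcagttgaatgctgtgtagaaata

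These 4 tRNAs summed to 229660 (mt-Ts1), 33959 (mt-Ty), 21380 (mt-Tc) and 19444 (mt-Te) input reads. The strand divided the tRNAs without overlap. The 8 minus-strand tRNAs had 1678 to 229660 input reads with a median of 13842, and the 14 plus-strand tRNAs had 49 to 400 with a median of 144. These are counts over gene models. The strand setting of the counting is not given in the sources used here, and from which strand these reads came was not tested. mt-Nd6, the only message of the minus strand, had 107347 input reads and ranked sixth. mt-Nd5, the plus-strand message that meets it end to end and shares 14 bases with it, had 52905. Both encode subunits of respiratory complex I. In the 24 inputs mt-Ts1 ranged from 1866 to 50196 CPM with a median of 18372, and mt-Nd6 from 1504 to 30824 with a median of 6450.

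The first rank went to mt-Rnr2, the large mitochondrial rRNA, at 24040 to 88337 CPM in the inputs with a median of 54762, while the small rRNA mt-Rnr1 ranked 25th at 1385 to 5915 CPM with a median of 2884. The remaining members from this genome were the plus-strand messages mt-Co1 (34100 input reads), mt-Nd4 (18615) and mt-Cytb (17574), which encode parts of complexes IV, I and III. Per kilobase of exon the input level, as the median over 24 inputs, was 266258 CPM for mt-Ts1, 34616 for mt-Rnr2 and 12428 for mt-Nd6, and 12428 was also the median of the 11 mitochondrial members. The mt-Ts1 model is only 69 bases long. For the 68 nuclear members that share exons with the other strand the median was 678 CPM per kilobase.

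**Figure D1:**
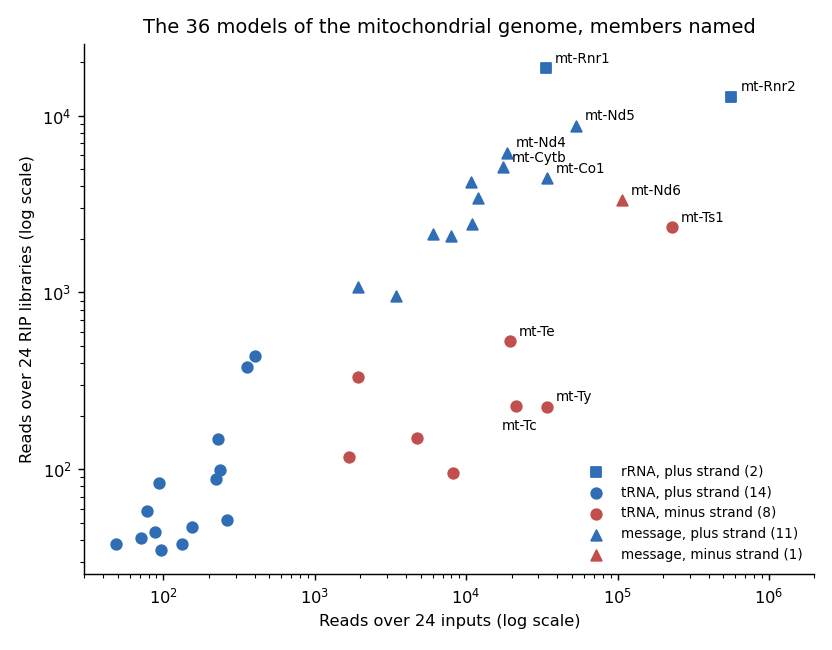
Reads summed over the 24 inputs (x axis, log scale) and over the 24 RIP libraries (y axis, log scale) for the 36 models of the mitochondrial genome, one point per model, coloured by strand and shaped by RNA class. The 8 minus-strand tRNAs lie to the right of the 14 plus-strand tRNAs, which end at 400 input reads, and mt-Ts1 and mt-Nd6 have fewer RIP reads than the plus-strand messages mt-Nd4 and mt-Nd5 although they have more input reads.

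Among the 98 members held by the annotation, 45 were protein coding (45.9%), against 70.6% of all 26555 annotated models. The antisense class supplied 22 members (22.4%, against 7.05% of all annotated models), the lincRNA class 15 (15.3%, against 6.87%) and the processed transcript class 6 (6.12%, against 2.02%). The median exon length of the 98 members was 2528 bases, near the 2868 of all models. In 72 of 98 members (73.5%, Wilson 95% interval 64.0 to 81.2) the exons shared at least 1 base with an exon of a gene on the other strand, against 27.2% of all annotated models and 36.5% of the 15732 with at least 10 summed input reads. An overlap of 100 bases or more was found in 62.2% of members and 21.9% of all models. The neighbour on the other strand was protein coding in 64.3% of members and in 16.9% of all models. These shares describe a list chosen by input counts.

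**Figure D2:**
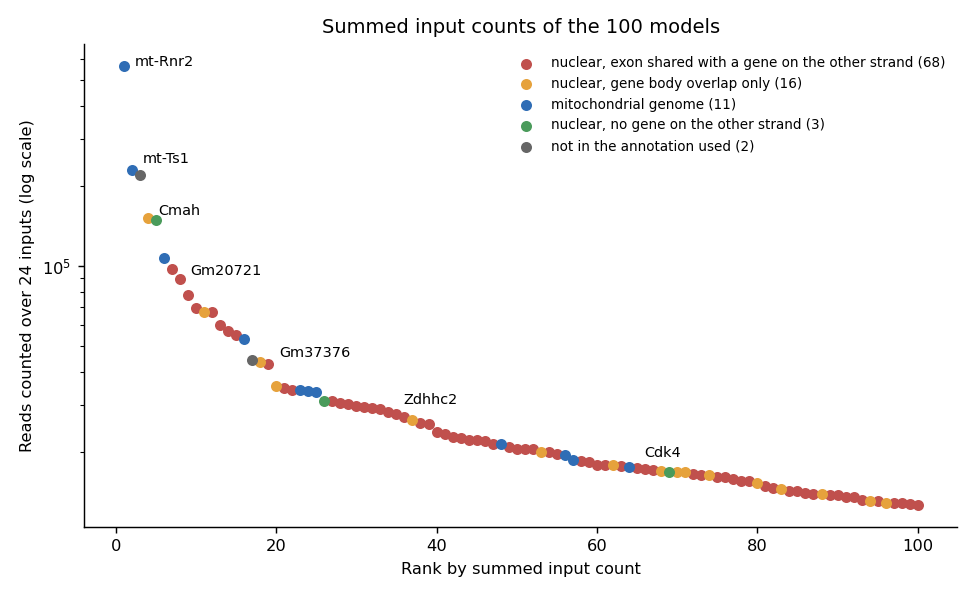
Reads summed over the 24 inputs (y axis, log scale) for the 100 members by rank (x axis), coloured by class. Nuclear members with an exon shared with the other strand (68 points) fill most ranks from 7 to 100, and mitochondrial models hold ranks 1, 2 and 6.

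For 63 of the 68 with shared exons the partner was itself in the table, and it was protein coding in 58. In each of these 63 pairs the member had more input reads than its partner and also more RIP reads. The input order is partly fixed by the choice of members. The partners had 0 to 6050 summed input reads with a median of 134, which is a median of 0.603 reads per 100 reads of the member. The shared exon length ran from 8 to 2616 bases with a median of 415. The kit kept the strand of the RNA, whereas the strand setting of the counting is not given in the sources used here, and from which strand the reads of a pair came was not tested.

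Gm20721 on the minus strand of chromosome 2 (174330319 to 174346712) had 89491 input reads. It shares 1469 bases of exon with Gnas, which encodes the stimulatory G protein alpha subunit and had 5333 reads. 1810014B01Rik, annotated as a transcribed pseudogene on chromosome 10, had 67068 reads, and Hsp90b1 opposite it, the chaperone of the endoplasmic reticulum, had 1195. Gm20536 on chromosome 6 lies wholly within exons of Tgoln1, a trans-Golgi protein gene, and the pair had 60202 and 139 reads. 9830144P21Rik had 55081 reads against 243 for the phosphate transporter gene Slc20a1. Gm26904 had 77664 reads against 18 for Bicral. Among the 20 highest sums, 1600010M07Rik (56794) and Gm26561 (69341) shared exons with the other strand only with models outside the table.

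Further pairs, chosen as examples after their values were seen, had partners of known function. Gm11175 (29535 reads) lies opposite Jund (211), an AP-1 subunit. Gm15441 (25635) lies opposite Txnip (30), the thioredoxin-binding protein, and Gm15283 (22042) opposite Hif1a (188), the hypoxia-inducible factor. Tmem189 (16451) faces Cebpb (134), Gm14023 (23807) faces Il1a (133) and Zmynd15 (25495) faces Cxcl16 (320). The transcription factor gene Sox4, with 373 reads, faces Gm26735, with 27116 reads, over 2616 bases of exon. Fn1, which encodes fibronectin, had 571 reads and Apol7d opposite it had 17657. The pairs were not uniform: Atp5o had 6050 reads against 15589 for Gm15976, and Fam118b 2909 against 12834 for Srpr.

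Zdhhc2, a palmitoyltransferase gene, shares exon sequence with Cnot7 on the other strand, the mouse gene of the study's protein. Zdhhc2 had 27640 input reads and Cnot7 2013. Zdhhc2 stood at 2146 to 3303 CPM in the 5 vector inputs, 1326 to 3095 in the 4 D40A inputs, 1796 to 3318 in the 5 E247A/Y260A inputs and 1945 to 3981 in the 5 M141R inputs. In the CNOT7 inputs it stood at 2571 to 3724 CPM in 4 libraries and at 118 in replicate 10, so the groups overlapped. Cdk4, the cyclin D partner kinase, is a coding member of 17352 reads and faces Tspan31 (392).

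For 19 pairs the partner averaged at least 10 reads per input, so that its reads per 100 reads of the member could be followed across the 24 inputs. Malat1 had 3.47 to 14.5 reads per 100 of Gm37376, with a median of 7.19. Cnot7 had 3.91 to 15.2 per 100 of Zdhhc2, with a median of 6.26. The medians were 6.02 for Gnas against Gm20721, 1.76 for Hsp90b1 against 1810014B01Rik, 1.11 for Sox4 against Gm26735 and 1.08 for Hnrnpab, an RNA-binding protein gene, against Phykpl. In CNOT7 input replicate 10 Srpr had 12 reads, Tatdn1 10 and Gm16066 23, and the values without that library were added after seeing the data. Fam118b reached 742 per 100 of Srpr in that library and 67.6 at most in the other 23, Rnf139 reached 460 per 100 of Tatdn1 and otherwise 12.3, and Kmt5b reached 82.6 per 100 of Gm16066 and otherwise 5.02. Atp5o ran from 0 to 85.3 per 100 of Gm15976, the highest in vector input replicate 10.

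**Figure D3:**
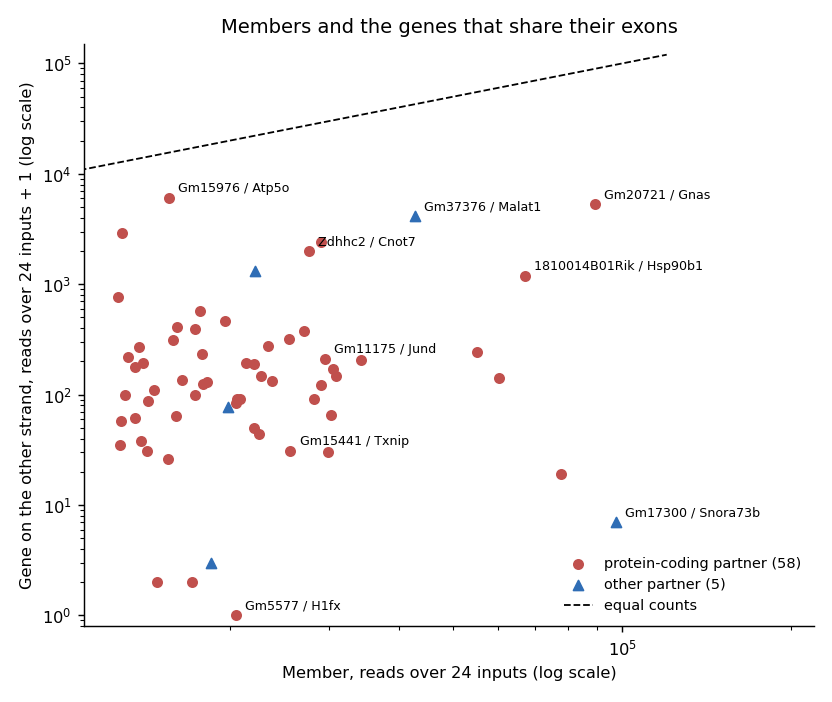
Reads over the 24 inputs for 63 nuclear members (x axis, log scale) and for the gene on the other strand with the longest shared exon in the table (y axis, reads plus 1, log scale), one point per pair. All points lie below the dashed line of equal counts, and the median partner has 134 reads.

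Of the gene lists, the 72 abundant housekeeping messages held 0 members. Their own input sums ran from 2 to 1759 reads with a median of 120, and Actb had 298, Gapdh 85, Eef1a1 894 and Tpt1 234. Of these 72 genes, 16 shared exons with a model on the other strand in the table, and in 11 of the 16 that model had more input reads. The partner of 1 member was on this list: H3f3a, a histone H3.3 gene, had 120 reads, and Gm17275 opposite it had 29083. The 18 glycolysis genes held 0 members, with a median of 80.0 reads, and of the 8 that shared exons with such a model 2 had fewer input reads than it. Among 49 replication histone genes 0 were members, but Gm20628 (22555 reads) shares exons with Hist2h3b (43 reads) and Hist2h2bb.

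The list of small structured RNAs and their hosts held 1 member. That member was Rn7s1, the 7SL RNA of the signal recognition particle, with 30992 input reads. Rn7s1 was at 0 in 5 inputs, had 1 to 300 reads in 6 and reached 1000 or more in 13, with 3243 at most. Both ends of this range occurred within groups, for example 0 reads in vector input replicate 10 and 3243 in vector input replicate 6. Gm37376 (42794 reads) lies wholly within Malat1, a nuclear-retained noncoding RNA that itself had 4131 reads. Gm17300 (97389 reads) shares exons with Snhg3 and with the snoRNAs that gene hosts, Snora73a and Snora73b, and Snora73b had 6 reads. Gm42418, on chromosome 17 from 39846958 to 39848788, shares 1822 of its 1831 exonic bases with CT010467.1, annotated as rRNA, and had 34892 input reads.

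A further 16 nuclear members overlapped a gene on the other strand only in the gene body, and 3 overlapped none. Cmah, the sialic acid hydroxylase gene on chromosome 13, had 151260 input reads and the only models opposite it were noncoding and outside the table. Gm26551 (67350 reads) spans Ppp2ca (181) and Skp1a (37) on the other strand, Gm16091 (35368) overlaps Tpm4 (473) and Osbpl10 (43397) overlaps 3 models with 1 to 20 reads. The 3 with no gene opposite were Slc38a6 (148469 reads), an amino acid transporter family member, Rn7s1, and Lars2 (16825), the mitochondrial leucyl-tRNA synthetase. ENSMUSG00000092267 (220234 reads, rank 3) and ENSMUSG00000103057 (44230 reads, rank 17) were not matched in the annotation used here. Just inside the limit of rank 100 lay Gm26668 (12811), Ccdc73 (12750) and Tti2 (12629), and just outside it Gm10785 (12548), Cdk8 (12540) and Gm15884 (12319).

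No member was called for a construct in either kind of library. Of 100 members tested in the inputs, 0 were called at an adjusted p under 0.05 against vector for CNOT7, D40A, E247A/Y260A or M141R (edgeR quasi-likelihood test, Benjamini-Hochberg adjustment over 3848 models), and 0% of the 3848 models were called. In the RIP libraries 0 of 99 members were called for any construct, and 0% of 1320 models; the member not tested was Rn7s1. DESeq2 also called 0 members in all 8 comparisons. The median log2 fold change of the members lay between -0.08 and -0.01 in the inputs and between -0.08 and -0.03 in the RIP libraries. The standard error of a member's log2 fold change had a median of 0.51 to 0.54 in the inputs and 0.29 to 0.31 in the RIP libraries. At the input medians a log2 difference of 1 lies within 2 standard errors, while members with smaller standard errors were measured more closely. These standard errors come from the fit without the replicate number. In bulk lysates fewer cells of a type and less RNA per cell cannot be told apart.

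At an unadjusted p under 0.05, in the inputs, 0 members and 1.14% of all models passed for CNOT7, 3 members and 1.30% for D40A, 1 member and 0.364% for E247A/Y260A and 0 members and 0.676% for M141R. In the RIP libraries 0 members and 0.606% of models passed for CNOT7, 5 members and 1.74% for D40A, 1 member and 1.14% for E247A/Y260A and 0 members and 0.909% for M141R. With the replicate number as a block the RIP libraries gave 5 members (5.05%) for CNOT7, against 5.61% of models, 21 (21.2%) for D40A, against 11.7%, 8 (8.08%) for E247A/Y260A, against 10.7%, and 8 (8.08%) for M141R, against 12.4%. In the inputs the block gave 1 member for CNOT7, against 4.26% of models, 8 for D40A, against 4.81%, and 0 for E247A/Y260A and M141R, against 3.07% and 3.79%. Those passing without the block were 8 different members, named here after their values were seen, and 6 of the 8 were mitochondrial. In the D40A inputs they were mt-Nd5, mt-Nd4 and mt-Cytb, in the E247A/Y260A inputs mt-Cytb, in D40A RIP mt-Rnr1, mt-Nd6, mt-Te, ENSMUSG00000103057 and Osbpl10, and in E247A/Y260A RIP again Osbpl10.

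Single libraries carried most of these values. mt-Nd5 stood at 5930, 5960, 7708 and 10794 CPM in the D40A inputs and at 1582, 3166, 3904, 4086 and 4894 in the vector inputs, so the groups did not overlap, with a log2 fold change of 1.26 ± 0.55 (SE) and an adjusted p of 1 by edgeR. It was higher than the vector input of the same number in 4 of 4 pairs, as were 2.96% of all 3848 models tested. With the replicate number as a block its log2 fold change was 1.36 and its adjusted p 0.921 (edgeR), so it was not called. mt-Cytb stood at 1477, 1512, 1875 and 4079 CPM in D40A against 693, 1207, 1242, 1335 and 1527 in vector, and these ranges overlapped. The summed level of the 4 plus-strand messages was 27723 CPM in D40A input replicate 6 and 32395 in E247A/Y260A input replicate 6, against 3670 to 4767 in the other 3 inputs numbered 6. Without D40A input replicate 6 the log2 fold change of mt-Cytb was 0.69 and that of mt-Nd4 was 0.50, against 0.99 with it. The 5 minus-strand members summed to 19735 and 21824 CPM in the same 2 libraries, against 5074 to 6588 in the other 3.

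In D40A RIP, mt-Rnr1 stood at 860, 5132, 9779 and 137109 CPM, the last in replicate 10, against 550, 2608, 3963, 11536 and 19445 in vector RIP. Its log2 fold change of 2.79 ± 1.30 (SE) became -0.39 without D40A RIP replicate 10. For mt-Nd6 the value went from 1.60 to 0.15 and for ENSMUSG00000103057 from 1.57 to 0.30 without that library. Osbpl10, an oxysterol-binding protein family gene, stood at 714, 976, 1245 and 2030 CPM in D40A RIP and at 1409, 1581, 2062, 2190 and 2542 in vector RIP, with a log2 fold change of -0.53 ± 0.22 (SE) and overlapping groups. It was lower than the vector library of the same number in 4 of 4 pairs, as were 11.4% of all 1320 models tested. In E247A/Y260A RIP it stood at 807 to 1780 CPM, with a log2 fold change of -0.47 ± 0.20, and was lower in 5 of 5 pairs, as were 5.68% of the models. With the replicate number as a block its adjusted p was 0.232 for D40A and 0.216 for E247A/Y260A (edgeR), so it was not called for either. The 4 comparisons of each kind share their vector libraries, and D40A has no library numbered 7.

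**Figure D4:**
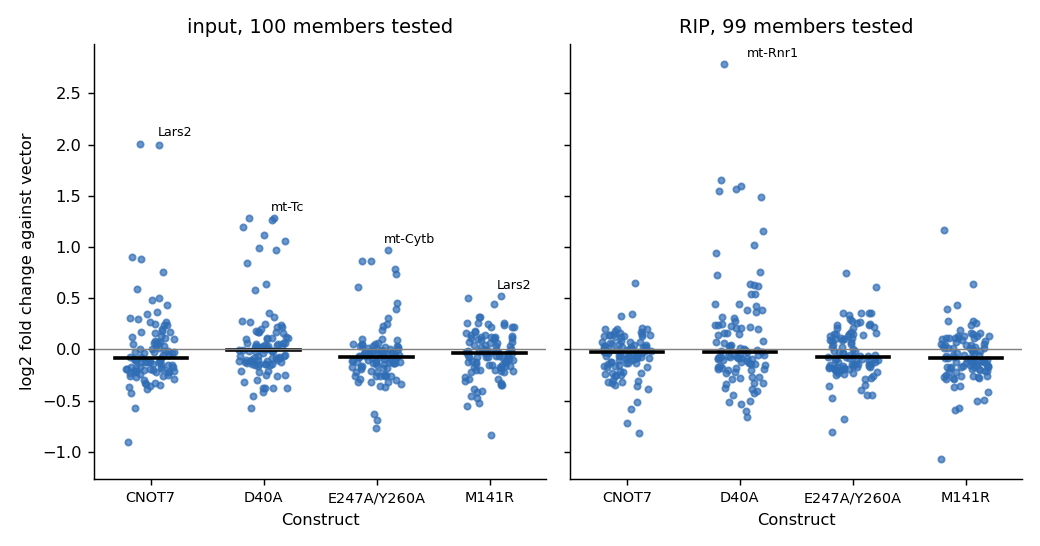
Log2 fold change against vector (y axis) of each tested member in the 4 construct comparisons, inputs on the left and RIP on the right; points are members, black bars their medians and the named points the highest member where labelled. The bars lie between -0.08 and -0.01, and mt-Rnr1 in D40A RIP, at 2.79, rests on replicate 10.

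The replicate number was tested across the constructs. In the inputs 66 of 100 members (66.0%) differed between the numbers 6 to 10 at an adjusted p under 0.05 (edgeR quasi-likelihood F-test with the construct as a covariate), against 69.4% of all 3848 models tested. In the RIP libraries 84 of 99 members (84.8%) differed, against 78.6% of 1320 models. Without CNOT7 input replicate 10 the inputs gave 95 members, against 78.6% of 3798 models. Of the 99 members tested in both kinds, 59 (59.6%) were called in both, against 60.9% of the 1201 models tested in both. A further 7 members (7.07%) were called in the inputs alone, against 16.5% of those models, and 25 (25.3%) in the RIP libraries alone, against 15.6%. Of the 59 members, 35 (59.3%) had the same number highest in both kinds, against 51.3% of the 731 models called in both. These differences from the table were not tested, and the split rests on 1 library. With CNOT7 input replicate 10 left out of the inputs, an omission chosen after seeing the data, 80 members were called in both kinds, 15 in the inputs alone and 4 in the RIP libraries alone. The matching shares of all models are not given for this split, so it cannot be set against the table. What the numbers stand for beyond a replicate is not given in the labels, and the cause was not tested.

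ENSMUSG00000103057 had the lowest adjusted p among members in the inputs (2.49e-09, edgeR), and its call was lost without number 10 (0.177, edgeR). It stood at 8224 to 16206 CPM in the 5 inputs numbered 10, whichever the construct, and at 1170 to 3308 in the other 19. Gm15441, opposite Txnip, ran the other way. It was highest in number 6, at 3983 to 5319 CPM, and lowest in number 10, at 180 to 722, with numbers 7, 8 and 9 at medians of 2856, 1733 and 1285 (adjusted p 6.94e-09, edgeR). The RIP libraries of Gm15441 kept that order, with medians of 4715, 2576, 1645, 868 and 621 CPM from number 6 to number 10.

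ENSMUSG00000092267 stood at 26740 to 53973 CPM in the inputs numbered 10 and at 5252 to 7787 in those numbered 6 (adjusted p 3.98e-08, edgeR). It also had the lowest adjusted p in the RIP libraries, 6.29e-17 by edgeR, with 12644 to 13484 CPM in number 10 and 975 to 5023 in the others. Gm37376, within Malat1, stood at 8164 to 9664 CPM in the RIP libraries numbered 10 and 1000 to 4470 in the others (adjusted p 2.01e-15, edgeR). mt-Ts1 followed in the RIP libraries, at 2599 to 7928 CPM in number 10 and 352 to 1696 in the others (adjusted p 4.53e-14, edgeR), whereas its inputs were highest in number 9, at 35323 to 50196 CPM. By the median over constructs on the TMM scale, the mitochondrial members were lowest in number 6 for 10 of 11 in the inputs and highest in number 9 for 10 of 11. Of the 11, 7 were called for the number in the inputs. In D40A and E247A/Y260A input replicate 6 the 4 plus-strand messages nonetheless summed to 27723 and 32395 CPM, which a median does not show. In the RIP libraries 5 of the 11 were lowest in number 6 and 6 highest in number 9. The 68 nuclear members with shared exons were lowest in number 10 for 48 and highest in number 6 for 39 in the inputs, where 47 were called. The 16 with gene body overlap only had a like profile, lowest in number 10 for 13 and highest in number 6 for 10. In the RIP libraries 25 of the 68 were lowest in number 10 and 23 highest in number 6. The corresponding shares of all models are not given, and the classes were not compared by a test.

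Among the members opposite a gene of a fixed list, Gm20628, opposite Hist2h3b, stood at 3621 to 5579 CPM in the inputs numbered 6 and at 554 to 2130 in the others (adjusted p 7.33e-07, edgeR). Gm11175, opposite Jund and named after its values were seen, stood at 5257 to 7905 CPM in the inputs numbered 6 and at 565 to 2786 in the others (adjusted p 3.39e-07, edgeR), and its call was lost without number 6 (0.0748). Gm42418 and Lars2 had the same order of medians. Gm42418 had input medians of 678, 2140, 387, 4206 and 3447 CPM from number 6 to number 10 (adjusted p 5.31e-06, edgeR). Lars2 had 193, 986, 113, 2366 and 1578 CPM in the same order (adjusted p 8.24e-07, edgeR). Both were highest of all inputs in CNOT7 input replicate 10, at 20764 and 9375 CPM.

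The most counted coding models of the nucleus are given by construct. Cmah stood at 5840 to 25209 CPM in the vector inputs and at 10678 to 27064 in the CNOT7 inputs, and Slc38a6 at 8143 to 20642 and 13526 to 20060. Gm20721 stood at 4590 to 12309 CPM in the vector inputs and at 5556 to 11551 in the CNOT7 inputs. The construct groups overlapped for each of these 3 members. All 3 were nonetheless called between replicate numbers in the inputs, with adjusted p of 0.00023 for Cmah, 0.0331 for Slc38a6 and 0.00522 for Gm20721 by edgeR. The call of Slc38a6 was lost when any of 7 single libraries numbered 9 or 10 was left out, with adjusted p of 0.0601 to 0.083.

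**Figure D5:**
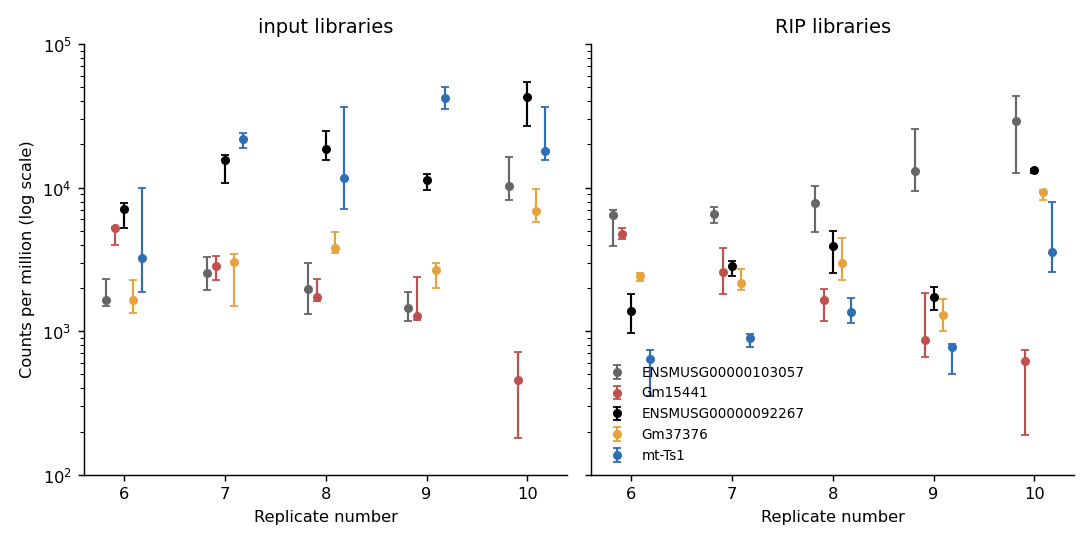
Level of 5 members in CPM, scaled to reads outside the 13 dominating models (y axis, log scale) by replicate number (x axis), inputs on the left and RIP on the right; points are medians over the constructs and bars run from the lowest to the highest library (5 libraries, 4 for number 7). ENSMUSG00000103057 is higher in the 5 inputs numbered 10 than in all others, and Gm15441 is lower there.

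The ratio of RIP to input is a description, since the input counts chose the members. On the scale outside the 13 models, with 0.5 reads added, the median member had a log2 ratio of -0.38 ± 0.21 (SD over 5 pairs of libraries) in vector cells. It was -0.39 ± 0.24 for D40A (4 pairs), -0.38 ± 0.32 for E247A/Y260A and -0.46 ± 0.42 for M141R (5 pairs each). For CNOT7 it was 0.06 ± 1.26 over 5 pairs and -0.50 without replicate 10, whose ratio was 2.31. These levels depended on the scaling: TMM factors over 48 libraries gave -0.99 in vector and -0.78 in CNOT7, whose sign turned, and scaling to all reads gave -5.69 and -5.10. The corresponding medians over 2055 models with a mean of at least 10 reads were -0.08 for vector, -0.01 for D40A, 0.00 for E247A/Y260A, -0.11 for M141R and 0.15 for CNOT7, the last becoming -0.07 without replicate 10. The member ratio in vector cells, which hold no FLAG-CNOT7, lay within 1 SD of that of each construct, but for CNOT7 the SD of 1.26 rests on replicate 10. Whether the ratio differed between constructs was not tested.

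Members varied widely around these medians. Of the 100, 8 were higher in the RIP than in the input in all 24 pairs, where 6.91% of the 2055 models were, and 12 were lower in all 24, where 2.77% were. Without the pair CNOT7 replicate 10 the counts were 9 and 28 over 23 pairs, where 7.30% and 6.23% of the models were. The 12 lower in all 24 were mt-Rnr2, mt-Ts1, mt-Ty, mt-Tc, ENSMUSG00000092267 and Cmah, together with Gm17275, Gm20628, Phykpl, Mettl23, Gm26619 and Cdk4. The 5 minus-strand mitochondrial members had mean log2 ratios of -4.71 to -2.28, and the 6 plus-strand ones -3.41 to 0.85 with a median of -0.18. mt-Ty had the lowest ratio of those counted throughout, -4.71, with 416 to 2355 reads in each input and 1 to 53 in each RIP library. mt-Ts1 followed at -3.82 and mt-Tc at -3.78, ahead of mt-Rnr2 at -3.41. Rn7s1 was at 0 in 23 RIP libraries and had 36 reads in the other, so its ratio depends on the reads added and is not given.

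The highest mean log2 ratios were 2.95 for Gm42418, 2.47 for Gm4876, 1.95 for ENSMUSG00000103057, 1.86 for Lars2 and 1.16 for Pcx, the pyruvate carboxylase gene. Gm42418 was higher in 22 of 24 pairs and Gm4876 in all 24, with 0.99 as its lowest value. For Lars2 the ratio ran from -2.32 to 5.58 and was above 0 in 19 pairs. The highest ratio of Pcx, 8.28, came from CNOT7 replicate 10, where the input held 2 reads, and its highest value in the other pairs was 1.40. Without that pair, an omission chosen after seeing the data, its mean was 0.87, below Apol7d at 1.09, Slc15a3 at 0.98 and Gm26809 at 0.94, whereas the other 4 of these members stayed the highest, at 2.01 to 3.08. Slc38a6, at rank 5, had medians of 14384 CPM in the inputs and 15318 in the RIP libraries.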

How the data were processed

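The authors deposited one table of raw counts per gene, whole numbers with no normalization. The submitters' processing notes name BWA, HTSeq and mm9; versions, annotation and strand of counting are not given in the sources used here. Identifiers were matched to GENCODE M21 on GRCm38 (26555 of 26899 found), whose positions are printed. Of the per-sample columns 0 were unused. The members and lists were chosen with earlier results of these data known. Inputs and RIP libraries were fitted separately (filterByExpr, TMM, edgeR 4.0.16 under R 4.3.3 with its quasi-likelihood test, Benjamini-Hochberg adjustment over all models tested, threshold 0.05), with DESeq2 1.42.0 as an alternative. Python 3.11.15 served for the rest. Standard errors were derived from the p-values. The fits were tested on simulated data. Wilson intervals are at 95% and are given for shares of models. The rule for named members took the 20 highest sums, up to 3 called per test, members opposite a listed gene, the 5 highest and lowest ratios, the neighbours of rank 100 and members far from the rest of their group, which are given as counts; other pairs were named as examples. Libraries with the same number deviated together: the correlation with vector exceeded 0.1 for every number in 7 of 8 comparisons, with 0.046 as the lowest value, in M141R RIP. The labels do not say that a number marks a shared batch. No library was a copy of another within its group (lowest chi-square per degree of freedom 4.98 over 92 pairs of libraries).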

Additional observations from a re-analysis of the deposited data

Results flagged for a closer look

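Within groups of 4 or 5 libraries, values lying far from the rest were picked out by Dixon's 95% criterion, which chance meets in about 1 of 20 groups. The members' share of the reads outside the 13 dominating models was 43.4% in D40A RIP replicate 10, above the rest of its group, and 20.0% in M141R RIP replicate 9, below the rest of its group. The median log2 ratio of RIP to input in CNOT7 replicate 10 was 2.31, above the other 4 CNOT7 pairs, and the level of Zdhhc2 in CNOT7 input replicate 10 was 118 CPM, below the other 4.

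Of all 1000 combinations of a member and a group, 10.3% were picked, where chance gives about 5%, and they held 66 different members. CNOT7 input replicate 10 accounted for 51 such combinations (49.5% of those picked), 50 on the low side. The next was vector input replicate 10 with 11, all low.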

How the results depend on the processing

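No member was called for a construct under library sizes without TMM factors or without the 13 models, a fit of all 48 libraries, a fit of only the groups compared, DESeq2, or with any 1 library left out (lowest and highest 0). Without the filter on low counts 1 member was called, mt-Rnr1 in D40A RIP. With the replicate number as a block 0 members were called in each of the 8 comparisons, so the block changed no call of a member; 7 models of the table were called in M141R RIP, none of them a member.

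The members called for the replicate number stayed within 1.5 times of 66 in the inputs and 84 in the RIP libraries. Leaving out libraries gave 52 (all libraries numbered 6) to 95 (CNOT7 input replicate 10) and 69 to 86. Among the members whose adjusted p is given for it (edgeR), 3 lost the call in the inputs under an omission: ENSMUSG00000103057 without number 10 (1.86e-12 to 0.177 over the omissions), Gm11175 without number 6 (9.5e-13 to 0.0748) and Slc38a6 under 9 omissions (4.99e-07 to 0.12).

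Scaling to all reads, which include the 13 models, moved the median log2 ratio of RIP to input to -5.69 in vector, -5.10 in CNOT7, -5.43 in D40A, -5.50 in E247A/Y260A and -5.47 in M141R. TMM factors over 48 libraries gave -0.99 in vector, -0.78 in CNOT7, where the sign turned from 0.06, -1.13 in D40A, -1.19 in E247A/Y260A and -1.26 in M141R. With pairs left out the ratio was -0.46 to -0.32 in vector, -0.50 to 0.22 in CNOT7, -0.49 to -0.31 in D40A, -0.50 to -0.29 in E247A/Y260A and -0.61 to -0.32 in M141R. With an overlap of at least 100 bases 62.2% of members had a neighbour on the other strand, against 21.9% of all annotated models. With overlapping gene bodies 89.8% of members had one, against 44.4%. Ranking by mean share kept 99 members and by the vector inputs alone 97.

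The median member had 42.0 to 384 reads in a RIP library and 66.0 to 1432 in an input, while the median standard error was 0.29 to 0.31 in the RIP libraries and 0.51 to 0.54 in the inputs.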
